A study of Mus musculus with 2 samples.

Results

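The immunoglobulin kappa light-chain locus (Igk) of the mouse was examined at chr6:67550001-70730000 (mm10), from the most distal V segments to just past the constant region. The interval was taken by coordinate and divided into 318 bins of 10 kb, among 264906 bins of chromosomes 1 to 19, X and Y with a read, and its last bin, chr6:70720001-70730000, was further divided into 10 bins of 1 kb. RefSeq (GRCm38.p6) places 102 V segments, 60 V pseudogenes, 5 J segments and the constant region Igkc in it, and no protein-coding gene. The assay was END-seq, in which adaptors are ligated to the DNA ends of cells held in agarose plugs. Reads thus begin where DNA was broken, and their strand tells the side: plus-strand reads extend rightward from the break and minus-strand reads leftward. One library came from S-phase cells activated with IL-4 (25 ng/mL) plus an antibody to CD40 (1 µg/mL) for 24 to 28 h. The other came from G1-phase cells kept quiescent for 24 to 28 h without IL-4 or the antibody. Both were made from CD43- B cells of the spleen, from mice 4 to 8 weeks old, and both carry the label ATR+c, which the labels do not spell out. DNA ends carry no expression values, so the labelled cell type was not checked against marker genes.

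Igk is assembled in B cell precursors by V(D)J recombination. The RAG1-RAG2 recombinase cuts between a V or J coding segment and the recombination signal beside it, which leaves a hairpin-sealed coding end and a blunt signal end, and the non-homologous end-joining factors then join coding end to coding end and signal end to signal end. V segments lie in either orientation on a long stretch of DNA to the left of the J segments, each J segment has its recombination signal on its left, and joining a V to a J deletes or inverts the DNA between them. A mature B cell population therefore holds a mixture of rearranged and germline copies of the locus, and copy number was not measured in these libraries.

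The S-phase library held 20543572 reads on chromosomes 1 to 19, at 2.90 reads per covered base and strand, and the G1-phase library 26889564 reads, at 3.99 reads per covered base and strand. Counts were scaled to these totals and are given as reads per 1000000 reads of these chromosomes (RPM) or as the ratio of the S-phase to the G1-phase value. There is 1 library per condition, so no difference has a replicate check and none was tested. Intervals are 95% exact intervals that cover counting error only, and they are too narrow where reads pile up on 1 base. With means of 2.90 and 3.99 reads per covered base, this bears on intervals throughout and not only at the highest stacks. Activation, cell cycle phase and library cannot be told apart in any comparison.

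Of the sequence of the locus, the tables at hand gave only the promoter windows of 5 long non-coding RNA genes, each window 300 bases. That of Gm30211, at chr6:70728963-70729262 on the plus strand (RefSeq, GRCm38.p6), lies to the right of Igkc and is shown because reads of the constant-region end of the locus began in it. The 3 capitals mark the bases at which plus-strand reads started.
Gm30211: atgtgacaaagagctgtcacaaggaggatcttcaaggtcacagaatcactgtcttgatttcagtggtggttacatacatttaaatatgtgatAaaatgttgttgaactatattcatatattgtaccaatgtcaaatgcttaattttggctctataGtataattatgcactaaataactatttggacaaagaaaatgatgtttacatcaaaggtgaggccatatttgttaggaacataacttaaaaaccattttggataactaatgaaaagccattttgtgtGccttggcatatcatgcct
The first marked base, position 70729055, had 0 S-phase and 8 G1-phase reads, and position 70729118 had 0 and 5. The last, position 70729244, had 5 S-phase and 0 G1-phase reads. No base of the window carried reads in both libraries, and no minus-strand read began there. The promoters of Gm38573, LOC108169192, Gm46962 and Gm46961 held at most 6 reads in either library.

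Across the whole locus, break ends were less frequent in the S-phase library. Reads numbered 28435 (1384 RPM) in S phase and 44269 (1646 RPM) in G1 phase, for a ratio of 0.841 (95% interval 0.828 to 0.853). By strand the ratio was 0.850 (plus) and 0.832 (minus), so both sides of the breaks gave it. Plus-strand reads made up 49.7% of the S-phase and 49.1% of the G1-phase reads. With each covered base counted once instead of by its reads, the ratio was 0.842.

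The chromosome to either side behaved differently. The flank of equal length to the left (chr6:64370001-67550000, 24 protein-coding genes) had a ratio of 0.983 (0.967 to 0.998) and the flank to the right (chr6:70730001-73910000, 44 protein-coding genes) one of 1.08 (1.064 to 1.099). The Igk ratio was 0.856 times that of the left flank (0.837 to 0.875) and 0.777 times that of the right flank (0.760 to 0.795). Set against the median flank bin of the same library, the mean Igk bin held 1.13 times as many reads in S phase and 1.39 times as many in G1 phase. For the median Igk bin these values were 1.09 and 1.30. The locus therefore stood above its flanks in both libraries, and by more in G1 phase.

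Gene content moved with the ratio across the genome. Among 763 other tiles of 3.18 Mb on chromosomes 1 to 19 the median ratio was 1.01, from 0.769 to 1.25, and 8 tiles had a ratio at or below that of Igk. Among the 62 tiles with at most 2 protein-coding genes the median was 0.876, and 7 were at or below Igk. Of the 7 tiles with no protein-coding gene, 1 was at or below it. Igk thus lay low among all tiles and in the lower part of those that hold as few genes; the part of gene content in its ratio was not tested.

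**Figure D1:**
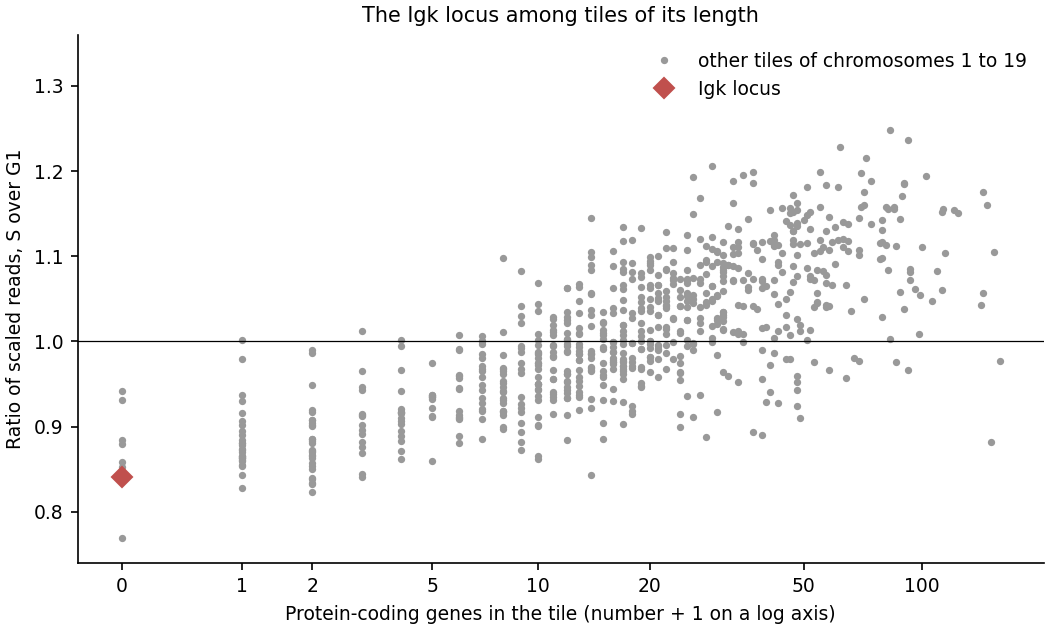
Ratio of scaled reads (S over G1) of 3.18 Mb tiles of chromosomes 1 to 19 against the number of protein-coding genes in each (number + 1 on a log axis); each point is 1 tile and the diamond is the Igk locus. Igk, at 0.841 with no protein-coding gene, sits within the range of the gene-poor tiles at the left, below most of them and below nearly all gene-rich tiles.

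The other antigen receptor loci did not share the low ratio. Igh, the heavy-chain locus, had 0.989 (0.971 to 1.01), Igl, the lambda light-chain locus, 1.09 (1.03 to 1.15), and the T cell receptor loci Tcra, Tcrb and Tcrg 1.02, 1.00 and 1.12. The Igk ratio was 0.850 times that of Igh (0.830 to 0.870) and 0.770 times that of Igl (0.727 to 0.815).

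The lower S-phase level ran along nearly the whole V region. The V region was split into distal V (chr6:67550001-69130000, 158 bins) and proximal V (chr6:69130001-70720000, 159 bins), where proximal means near the J segments. Distal V held 14312 S-phase and 21609 G1-phase reads, a ratio of 0.867 (0.849 to 0.885). Proximal V held 13952 and 22392, a ratio of 0.816 (0.798 to 0.833), which was 0.941 times the distal one (0.913 to 0.969). On the minus strand alone it was 0.978 times the distal one, and on the plus strand 0.905 times. The difference between the ends was not a steady gradient: with the V region in 3 parts, the ratio was 0.920 in the most distal 105 bins, 0.783 in the 107 bins between and 0.828 in the most proximal 105 bins.

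Stretches of 200 kb gave the same picture at a finer scale. The most distal one, chr6:67550001-67750000, held 2035 S-phase and 2655 G1-phase reads, a ratio of 1.00 (0.946 to 1.06). The other 15 of 16 stretches all had a ratio and an interval below 1. The same share over the genome's 200 kb stretches was not computed. Among other 3.18 Mb tiles with at most 2 protein-coding genes, the median ratio was 0.876. The lowest was chr6:69550001-69750000, at 0.702 (0.661 to 0.747; 1598 and 2978 reads), and it holds 13 V segments or V pseudogenes. The last stretch before the J segments, shortened to 17 bins, had a ratio of 0.769 (0.720 to 0.822).

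Single bins were called where the ratio was at least 2 or at most 0.5 with both strands to the same side of 1, among bins whose mean scaled level was at or above the 10th percentile. All 318 Igk bins entered. Of these, 21 (6.60%) were lower in S phase, against 2.24% of the 238422 bins of the genome that entered and 4.02% of those in the other tiles with at most 2 protein-coding genes. One bin (0.314%) was higher, against 2.69% of the genome's bins and 0.608% in the gene-poor tiles. The interval lay below 1 in 113 Igk bins, against 17.9% of the genome's bins, and above 1 in 28, against 18.4%. Distal V held 7 of the 21 lower bins (4.43% of its bins) and proximal V 14 (8.81%), and none lay in the most distal 650 kb. Just inside the lower limit were bins with ratios of 0.488 and 0.492 and just outside it bins with 0.506 and 0.517.

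The rule chose the 21 lower bins for their ratio, so their levels are given as a description. Their median was 194 reads on 51 covered bases in G1 phase and 62 reads on 27 bases in S phase, against 129 reads on 38 bases and 88 reads on 35 bases in the other Igk bins. With each covered base counted once all 21 stayed below a ratio of 1, and 7 stayed at or below 0.5. Under that count the rule called 9 Igk bins lower (2.83%, against 1.23% of the genome's bins). A V segment or V pseudogene overlapped 15 of the 21 bins, against 49.1% of all Igk bins. They were scattered, with 2 pairs of adjacent bins.

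**Figure D2:**
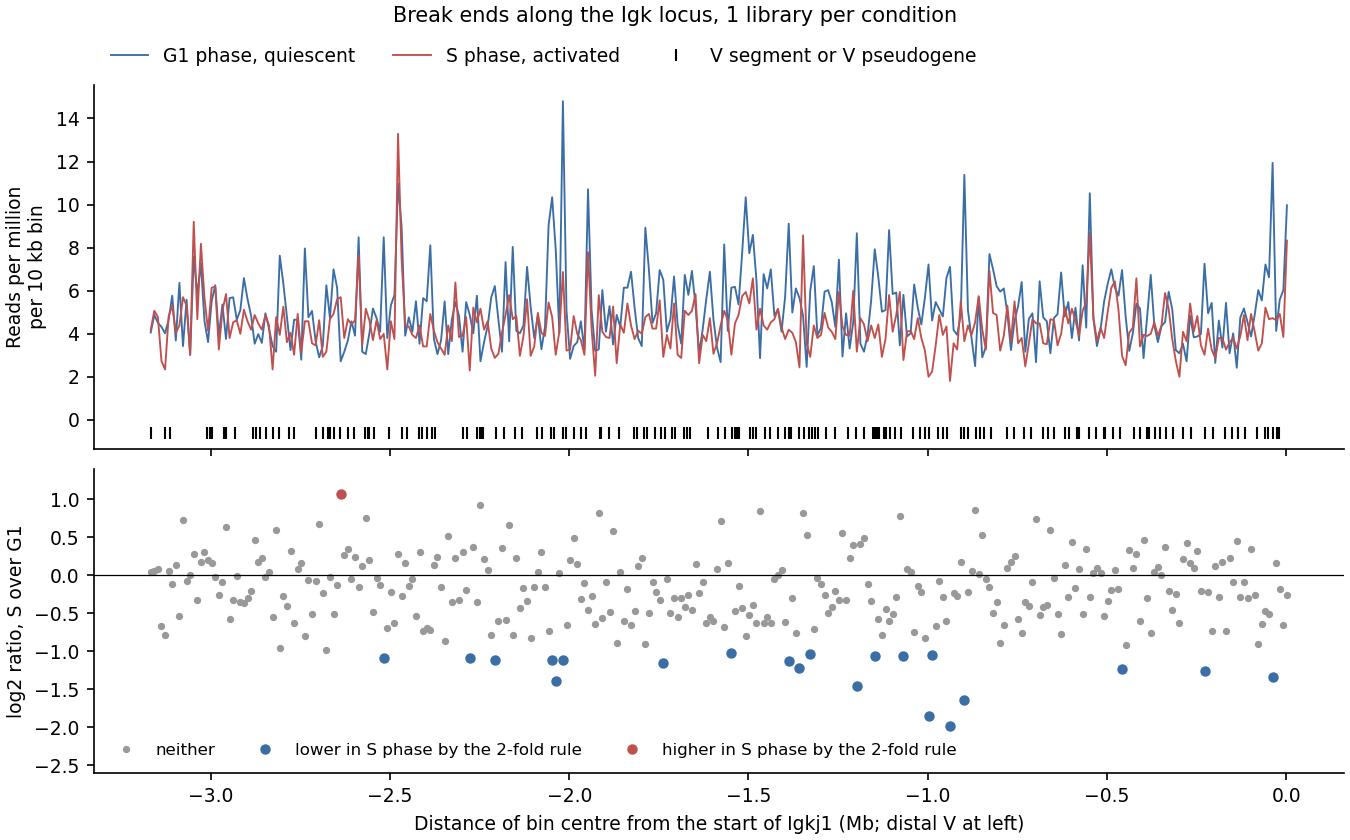
RPM in each of the 318 bins of 10 kb (upper panel; blue G1 phase, red S phase, ticks V segments and V pseudogenes) and log2 ratio of S over G1 (lower panel) against distance from the start of Igkj1 in Mb, with distal V at the left; 1 library per condition. The G1-phase line is above the S-phase line over most of the locus, and the 21 bins lower in S phase by the 2-fold rule lie from the middle of distal V to the J segments, with the 1 higher bin at the left.

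Of the 6 lowest bins 5 lay in proximal V. The bin chr6:69780001-69790000 held 37 S-phase and 191 G1-phase reads, a ratio of 0.254 (0.173 to 0.362). The bin chr6:69720001-69730000 around Igkv5-48 held 41 and 194 reads (0.277, 0.192 to 0.389), and chr6:69820001-69830000 around Igkv5-43 held 75 and 306 (0.321, 0.246 to 0.414). These 3 bins lie within 110 kb of each other. The remaining 3 of the 6 lowest were chr6:69520001-69530000 around Igkv13-57-2 (65 and 233 reads, 0.365), chr6:68680001-68690000 around Igkv10-95 (62 and 212, 0.383) and chr6:70680001-70690000 around Igkv3-3 (97 and 321, 0.396). The last is 40 kb from the J segments' bin and is also among the bins with most reads.

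At the other extreme, the called higher bin chr6:68080001-68090000 around the pseudogene Igkv14-118-1 held 117 S-phase and 73 G1-phase reads, a ratio of 2.10 (1.55 to 2.85). The next 5 had ratios of 1.77 to 1.90, and 1 of them, chr6:68800001-68810000 around Igkv4-90 (119 and 88 reads), was higher on the minus strand (3.66) and not on the plus strand (0.843). Of the 6 bins with most reads, chr6:68240001-68250000 had similar numbers in both libraries, 273 and 295 (1.21, 1.02 to 1.43). The bin chr6:68700001-68710000 around Igkv10-94 had 141 and 398 reads, the most of any Igk bin in G1 phase (0.464, 0.380 to 0.563). The others with most reads were chr6:70170001-70180000 around Igkv8-27 (178 and 283), chr6:68770001-68780000 (160 and 288), the J-C bin (171 and 268) and the Igkv3-3 bin above.

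The ratio was lower in the flanks of V segments than away from them. Within 2 kb of a V segment or V pseudogene the ratio was 0.740 (0.718 to 0.763; 6502 and 11501 reads), and in the V region outside these flanks it was 0.876 (0.861 to 0.892; 21762 and 32500 reads). The first was 0.844 times the second (0.815 to 0.874), or 0.939 times with each covered base counted once; with the segments alone and no flanks the direction turned, at 1.04 times. In G1 phase the read density near V segments was 1.20 times that away from them, whereas in S phase it was 1.01 times. The density in G1 phase was 0.634 RPM per kb up to 1 kb from a V segment, 0.587 at 1 to 2 kb, 0.509 at 2 to 5 kb, 0.470 at 5 to 10 kb and 0.507 beyond 10 kb. With each covered base counted once the ratio was 0.762 up to 1 kb, 0.797 at 1 to 2 kb and 0.817 beyond 10 kb. In S phase the same classes lay between 0.426 and 0.450 RPM per kb.

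Inside the V segments themselves the density was lower, 0.459 RPM per kb in G1 phase and 0.400 in S phase (ratio 0.872, 0.791 to 0.960). With each covered base counted once, the ratio there was 1.03, from 272 bases in S phase and 250 in G1 phase. V segments of a family are similar in sequence, and how reads that match several of them were placed is not given in the sources used here. Functional V segments with their 2 kb flanks had a ratio of 0.777 (0.748 to 0.807) and V pseudogenes with theirs one of 0.689 (0.655 to 0.725). With no flanks the order turned, at 0.842 for functional V segments and 0.951 for V pseudogenes. Functional V segments of distal V had a ratio of 0.855 (0.806 to 0.907) and those of proximal V one of 0.727 (0.691 to 0.764).

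**Figure D3:**
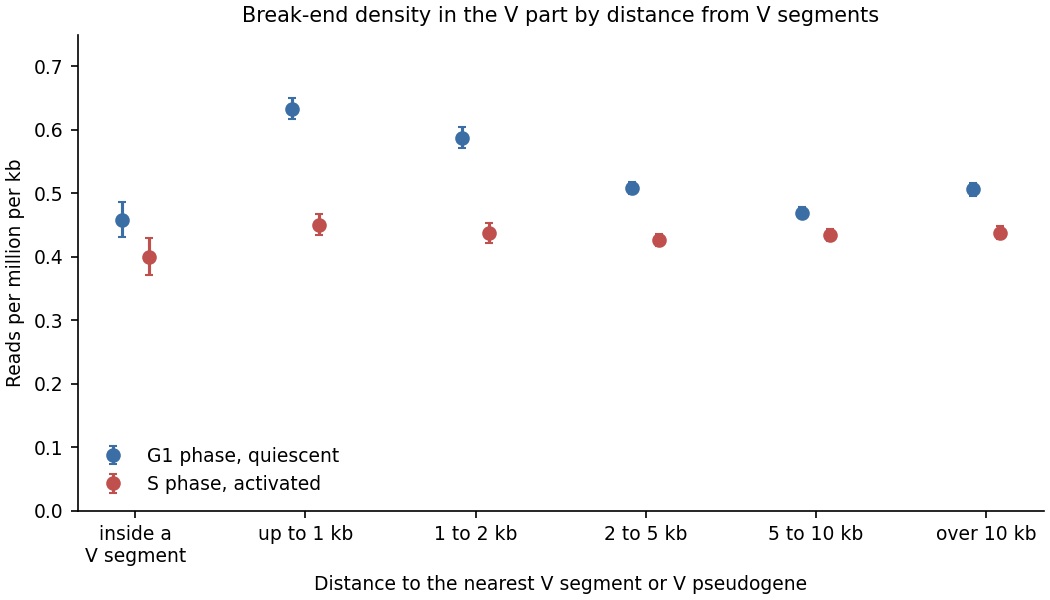
Read density (RPM per kb) in the V region by distance to the nearest V segment or V pseudogene, for G1 phase (blue) and S phase (red), 1 library each; bars are 95% counting intervals. The G1-phase density is highest up to 1 kb from a V segment, at 0.634, and the S-phase density stays between 0.400 and 0.450 in every class.

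All 162 V segments and V pseudogenes, taken with 2 kb flanks, had at least 50 reads in both libraries together. The ratio was below 1 in 112 and above 1 in 50, with a median of 0.791 against 1.08 over all 46836 genes measured the same way. The interval lay below 1 in 69 (42.6%; 13.5% of all genes) and above 1 in 22 (13.6%; 28.8% of all genes). With each covered base counted once, which leaves fewer counts, these numbers were 15 and 2. The shares of all genes under that count were not computed. Flanks of neighbouring segments share some reads, so these are not separate measurements.

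Families of V segments differed widely. Of the 15 families with at least 3 members, 13 had a ratio below 1, with the interval below 1 in 9, and 1 had the interval above 1. The same shares over groups of other genes were not computed, and the V region as a whole had a ratio of 0.841. Igkv5, whose 6 members all lie in proximal V, was the lowest at 0.376 (0.320 to 0.442; 197 S-phase and 685 G1-phase reads). All 6 members had a ratio below 1, though for Igkv5-37 it was 0.920 with an interval of 0.614 to 1.37. Igkv5-48 had 19 and 93 reads, Igkv5-45 had 30 and 100, Igkv5-43 had 35 and 211, Igkv5-40-1 had 39 and 141, Igkv5-39 had 29 and 76, and Igkv5-37 had 45 and 64. Igkv5-43 contributed the most G1-phase reads.

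Igkv3, with 13 members in proximal V, followed at 0.571 (0.511 to 0.637) and was less uniform. Its member Igkv3-3 had 37 and 257 reads, and Igkv3-9 had 39 and 23. With no flanks, where few reads fall, the family's ratio was 1.24. Igkv13, mostly pseudogenes (17 of 19), had 0.613 (0.561 to 0.671). Igkv4, the largest family with 33 members, had 0.739 (0.694 to 0.786; 1544 and 2736 reads). Igkv12 had 0.707, Igkv11 0.723, Igkv2 0.750, Igkv14 0.836 and Igkv8 0.867, all with intervals below 1. For Igkv10 (0.799), Igkv6 (0.887), Igkv1 (0.931), Igkv9 (0.938) and Igkv15 (1.00) the interval included 1.

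The Igkv17 family, 3 members in distal V, had a ratio above 1. Its reads numbered 105 in S phase and 78 in G1 phase, for a ratio of 1.76 (1.30 to 2.39), which was 1.18 with 5 kb flanks. Among its members Igkv17-127 had 46 and 25 reads (2.41, 1.45 to 4.09) and the pseudogene Igkv17-134 had 39 and 22 (2.32, 1.34 to 4.11), the latter with reads shared with Igkv1-133. The third member, Igkv17-121, had 20 and 31 reads, a ratio of 0.844 (0.456 to 1.53), so the family's ratio rests on the other two.

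**Figure D4:**
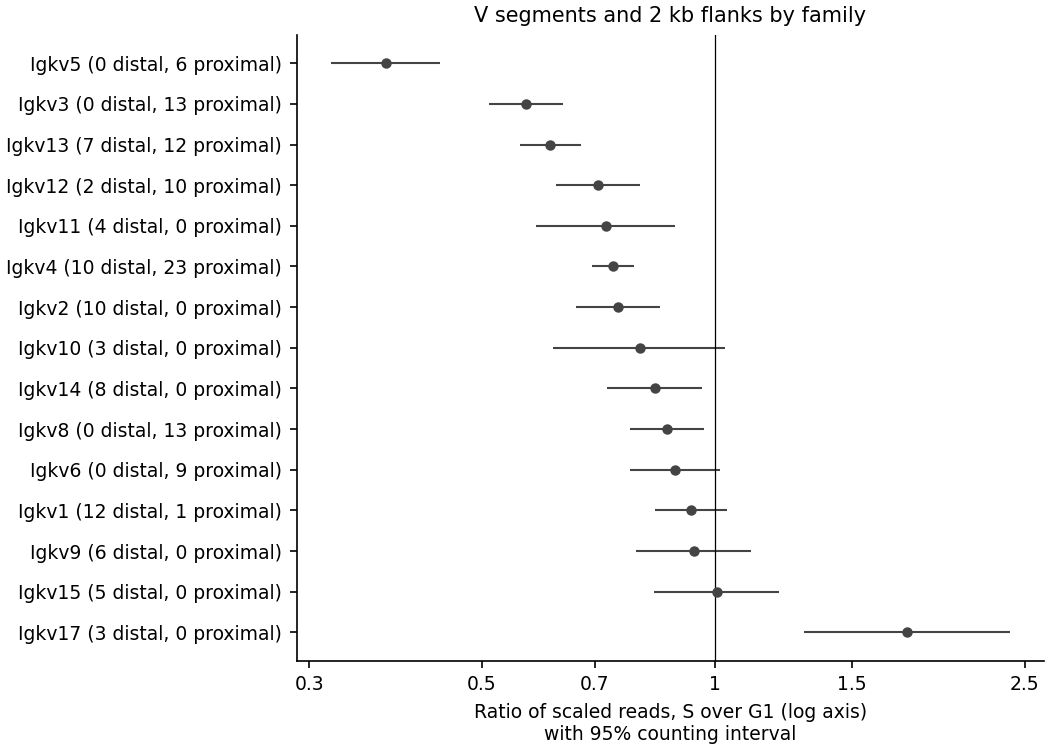
Ratio of scaled reads (S over G1, log axis) for the V segments and V pseudogenes of each family with 2 kb flanks, 15 families of at least 3 members; bars are 95% counting intervals and the number of members in distal and proximal V stands beside each name. Igkv5 (0.376) and Igkv3 (0.571), both wholly proximal, are the lowest, and Igkv17 (1.76), wholly distal, is the highest.

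Among single V segments the lowest ratio was that of Igkv3-3 (segment at chr6:70686946-70687534), 0.188 (0.130 to 0.267). It was lower on both strands, with 16 and 156 plus-strand and 21 and 101 minus-strand reads, which lay on 20 bases in S phase and 66 bases in G1 phase. Its G1-phase density, 2.08 RPM per kb, was the highest of all V segments in that library. Igkv5-43 had a ratio of 0.217 (0.147 to 0.312), Igkv14-100 had 17 and 84 reads (0.265, 0.147 to 0.450), and Igkv5-48 had 0.267 (0.154 to 0.441). The pseudogenes Igkv3-12-1 (28 and 120 reads, 0.305) and Igkv13-57-2 (29 and 124 reads, 0.306) completed the 6 lowest. Of these 6, all but Igkv14-100 lie in proximal V.

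The highest ratio was that of Igkv4-90, with 71 S-phase and 32 G1-phase reads (2.90, 1.89 to 4.56), some of them shared with Igkv13-89-1. After it and the Igkv17 members came Igkv3-9 (2.22, 1.29 to 3.89), Igkv14-118-1 (57 and 36 reads, 2.07) and Igkv15-101-1 (53 and 34 reads, 2.04), of which Igkv3-9 and Igkv15-101-1 share reads with neighbours. All but Igkv3-9 lie in distal V. The densest V segment in S phase was Igkv4-91, with 119 reads there and 249 in G1 phase, where it ranked next to Igkv3-3.

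The J-C bin was denser than the V region in both libraries. Its 171 S-phase and 268 G1-phase reads were 2.16 and 2.67 times the median flank bin of the same library, and its ratio was 0.835 (0.685 to 1.02). With each covered base counted once the ratio was 1.12. Its 10 bins of 1 kb were unequal. The bin chr6:70722001-70723000, which holds Igkj1 and Igkj2, had 50 and 138 reads (0.474, 0.336 to 0.660), which is 29.2% (S phase) and 51.5% (G1 phase) of the J-C reads. On its minus strand it had 40 and 119 reads. The other 9 bins together had 121 and 130 reads, a ratio of 1.22 (0.943 to 1.57), so the lower J-C ratio rested on the Igkj1-Igkj2 bin. The mean 10 kb bin of the V region held 89.2 S-phase and 139 G1-phase reads. The higher J-C density in G1 phase thus also rested mostly on the Igkj1-Igkj2 bin.

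The bin chr6:70723001-70724000 with Igkj3, Igkj4 and Igkj5 had 1 read in S phase, the fewest of the 10, and 9 in G1 phase. The next bin, chr6:70724001-70725000, in the intron between the J segments and Igkc, had 16 and 2 reads (10.5, 2.46 to 93.9). Its 2 G1-phase reads began on 1 base and are below the floor of 3 reads, so the size of this ratio is uncertain. The bin chr6:70725001-70726000 had 27 and 20 reads (1.77, 0.955 to 3.32). The Igkc bin chr6:70726001-70727000 had 9 and 5 reads, and the bins at 70720001, 70721001, 70727001 and 70728001 had between 9 and 20 reads in S phase and between 15 and 23 in G1 phase. The last bin, chr6:70729001-70730000 with the Gm30211 promoter, had 6 and 23 reads (0.341, 0.114 to 0.863). The interval thus lay below 1 in 2 of the 10 bins and above 1 in 1. Over the genome's 1 kb bins with at least 50 reads these shares were 24.6% and 21.2%, but only the Igkj1-Igkj2 bin reaches that number.

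Most reads of the Igkj1-Igkj2 bin began at the very edge of a J segment, on the side of its recombination signal. At position 70722911 on the minus strand, 5 bases before the start of Igkj2 (chr6:70722916), 32 reads began in S phase and 88 in G1 phase. This was the highest stack on a single base anywhere in the locus, in each library. At position 70722915, 1 base before Igkj2, 0 and 14 reads began, and at position 70722910 2 and 0. These minus-strand reads run leftward, away from the J segment. Windows of 12 bases at the segment edges were chosen after these values were seen.

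The left edge of Igkj2 had 34 reads in S phase (1.66 RPM) and 102 in G1 phase (3.79 RPM), a ratio of 0.436 (0.287 to 0.649). Each library had 2 covered bases there, so with bases counted once the ratio was 0.951. The left edge of Igkj1 had 0 and 14, of which 9 began 6 bases and 5 began 1 base before the segment. With the floor of 3 reads put in for S phase, G1 phase was 3.57-fold higher, which is not a lower bound. The interval of the S over G1 ratio ran from 0 to 0.395, and the reads lay on few bases. Igkj4 had 0 and 2 reads, both 1 base before the segment. Igkj3, known as a nonfunctional J segment, and Igkj5 had none in either library. Reads at the J edges were therefore uneven, with Igkj2 far above Igkj1 and the other 3 at or near 0. No plus-strand read began in the windows at the left edges, and none on either strand inside a J segment.

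**Figure D5:**
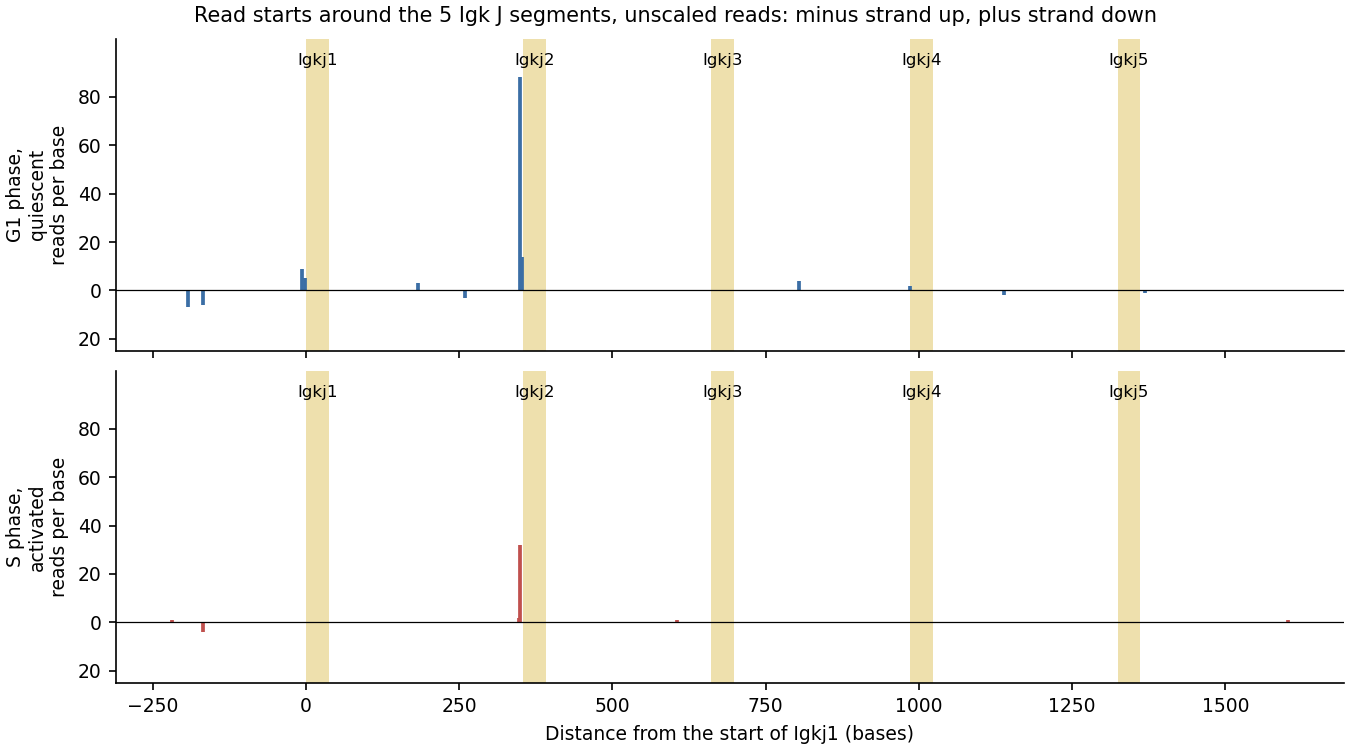
Reads starting at each base around the 5 Igk J segments (shaded) against distance from the start of Igkj1 in bases, for G1 phase (upper panel) and S phase (lower panel); minus-strand reads point up and plus-strand reads down, unscaled. The tall line just left of Igkj2 is the stack of 88 reads in G1 phase and 32 in S phase, and the pair of short lines left of Igkj1 is seen in G1 phase only.

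This pattern was compared with the J segments of the other receptor loci. Over both edges, the 5 Igk J segments had 34 S-phase and 119 G1-phase reads, of which 34 and 118 were minus-strand reads at the left edge. The other 77 J segments, of Igh, Igl and the T cell receptor loci, had 18 and 17 reads at their edges, with no minus-strand read at a left edge, and at most 8 S-phase and 12 G1-phase reads at any one of them. Segments on the minus strand of the genome have their signal at the right edge, which the count over both edges includes. At the edges of the 162 V segments and V pseudogenes there were 42 and 62 reads, against 34.7 and 54.0 for windows of this length at the mean rate of the locus, with at most 6 and 8 at any one. Functional V segments had 40 and 41 of these reads, against 21.8 and 34.0 at the mean rate, and V pseudogenes 2 and 21, against 12.8 and 19.99. At functional V segments 21 of 24 S-phase and all 30 G1-phase reads of the left edge were on the minus strand, and 12 of 16 and 9 of 11 of the right edge on the plus strand, the strands that run away from the segment. At the left edge of V pseudogenes 12 of 18 G1-phase reads were on the plus strand, and the 1 S-phase read was on the minus strand. At their right edge the 3 G1-phase reads and the 1 S-phase read were on the plus strand. The stacks at Igkj2 were high but not unique in the genome: 0.0772% of covered bases of chromosomes 1 to 19 had at least 32 reads in S phase and 0.0462% at least 88 in G1 phase. Whether the recombinase made these ends was not tested.

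Only 8 positions of the locus had at least 20 reads in either library. Besides that at Igkj2, the tallest was on the minus strand at 70176386, 4116 bases from Igkv8-27, with 23 S-phase and 79 G1-phase reads (0.381, 0.229 to 0.613), and 70176388 beside it had 9 and 26. Near Igkv10-94, positions 68701921 and 68701928 had 3 and 25 and 3 and 21 reads. Position 69615229 had 0 and 21, and 68688926 had 7 and 22. The exception was 68819423 on the plus strand, with 27 S-phase and 16 G1-phase reads (2.21, 1.15 to 4.39). In the locus 226 bases carried reads in both libraries, which is 1.94% of the covered bases in S phase and 1.72% in G1 phase. These shares were 1.21% and 1.24% in the left flank and 2.27% and 2.57% in the right flank.

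The genes that carry out V(D)J recombination had ratios mostly above 1. Over 13 of them the ratio of break ends in the genes with 2 kb flanks was 1.05 (1.02 to 1.08; 7971 and 9972 reads), and the median of the 13 ratios was 1.22, against 1.08 over all genes. The interval lay above 1 in 9 (28.8% of all genes) and below 1 in 2 (13.5% of all genes). The recombinase genes Rag1 and Rag2 had 127 and 125 reads (1.33, 1.03 to 1.72) and 94 and 69 reads (1.78, 1.29 to 2.47). For Rag1 the strands differed, with a ratio of 2.08 on the plus strand and 0.844 (0.577 to 1.22) on the minus strand. Dntt, which encodes terminal transferase, had 313 and 312 (1.31, 1.12 to 1.54). Lig4, the end-joining ligase, had 147 and 108 (1.78, 1.38 to 2.31), and its partner gene Xrcc4 had 2270 and 3180 (0.934, 0.885 to 0.986), at 1.01 on the minus strand. Prkdc, the DNA-dependent protein kinase catalytic subunit, had 1812 and 2601 (0.912, 0.858 to 0.969).

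Of the remaining genes of the list, the Ku subunit genes Xrcc6 and Xrcc5 had ratios of 1.21 and 1.08, Dclre1c, which encodes the hairpin-opening nuclease Artemis, had 1.17, and Nhej1, which encodes XLF, had 1.22. The polymerase genes Polm and Poll had 1.43 and 1.34, and Hmgb1, a DNA-bending cofactor of the recombinase, 1.09. The intervals of Xrcc5 and Hmgb1 included 1. These are counts of break ends over the genes and not levels of expression.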

How the data were processed

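END-seq libraries of 1 S-phase and 1 G1-phase sample were used. The deposited files give, per strand, the count of reads whose first base falls on each position, in bedGraph form. The submitters' processing notes name mm10 as the build and, as tools, bedtools, SAMtools 1.11 and Bowtie 1.1.2; the treatment of duplicate and multiply matching reads is not given in the sources used here, and the files carry no molecular identifiers. Rows wider than 1 base were counted once per base. Counts were summed over intervals and scaled to the total on chromosomes 1 to 19; ratios have conditional exact 95% intervals (scipy 1.17.1). A floor is 3 reads, 0.146 RPM in S phase and 0.112 RPM in G1 phase. The bin rule was checked on simulated data with independent counts and no stacked reads, so the check does not cover the stacking in these libraries. V segments and genes were taken with 2 kb flanks and at least 50 reads.

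Named were the 6 highest and 6 lowest bins and V segments by ratio, the 6 bins with most reads, all J-C bins, J segments, V families of at least 3 members and 13 recombination genes. Members and lists were chosen with earlier results of these data known. Gene names and coordinates are RefSeq's (GRCm38.p6). Alternatives were other scalings, stacks counted once or capped, single strands, other bin sizes, thresholds, filters and flanks.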

Additional observations from a re-analysis of the deposited data

How the results depend on the processing

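With 1 library per condition no library could be left out. No paired analysis was possible because each group has 1 library. The Igk ratio stayed between 0.832 and 0.850 under scaling to all chromosomes or to the median bin, stacks counted once or capped at 26 reads, single strands, and without the 6 bins with most reads. The ratio over the recombination genes stayed between 1.02 and 1.06. Scaling cannot change the levels against the flanks or the ratios between regions. The cause of the changes below was not tested.

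The proximal over distal V ratio was 0.905 (plus strand), 0.978 (minus strand) and 0.900 between the most proximal and most distal 105 bins. Bins called lower numbered 9 with each base counted once (2.83%, against 1.23% of the genome's bins), 35 on the plus strand (11.1% against 7.66%), 71 at a ratio of 1.5 (22.3% against 10.3%), 3 at a ratio of 3 (0.943% against 0.142%), 67 with 5 kb bins (10.6% against 6.92%) and 4 with 20 kb bins (2.52% against 0.322%). Those called higher numbered 2 (0.629% against 1.75%), 15 (4.76% against 8.15%), 13 (4.09% against 10.9%), 0 (0.209% of the genome's bins), 27 (4.27% against 7.41%) and 0 (0.506% of the genome's bins) under the same settings and 10 on the minus strand (3.17% against 8.11%). The J-C ratio was 1.12 with each base counted once, 1.04 with stacks capped, 1.15 for plus-strand and 0.655 for minus-strand reads. The plus-strand share of S minus G1 went from 0.548 to -0.357 percentage points with each base counted once. The left flank ratio was 1.01 on the plus strand, and 14 other tiles were then at or below Igk.

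For all V segments the ratio was 0.801 with each base counted once, 0.872 with no flank and 0.789 with 5 kb flanks. Near over far from V it was 0.939, 1.04 (reversed) and 0.879 under the same settings. V segments with an interval below and above 1 numbered 15 and 2 with each base counted once, 37 and 5 for plus-strand and 40 and 5 for minus-strand reads. The shares of all genes under these settings were not computed. The Igk level against flanks with each base counted once was 1.27 in S phase and 1.59 in G1 phase; against the median bin of chromosomes 1 to 19 it was 1.18 in S phase, and on the plus strand 1.37 in G1 phase.

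Directions turned, with no flank, for Igkv2 (1.35), Igkv3 (1.24), Igkv4 (1.01), Igkv17-134 (0.873) and Igkv5-48 (1.02), where few reads remain; with 5 kb flanks for Igkc (0.801); on the minus strand for Rag1 (0.844), Xrcc4 (1.01) and Xrcc6 (0.969); on the plus strand for the bin at 68800001 (0.842); and with stacks capped for the bin at 70170001 (1.01). Of 530 values for single bins, segments, genes and flanks, 410 stayed within the counting interval of the main setting, 108 moved outside it and 12 turned. Results whose interval in the main setting included 1 were not counted as turned. Some of them crossed 1 (Igkv1, Igkv6, Igkv9, Igkv10 and Igkv15 among the families). The interval under the other setting was not used, so that of a turned value may include 1. With no flank, Igkv14-118-1 and Igkv13-57-2 had no reads in 1 library and gave no ratio.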
